A study of Mus musculus with 2 samples.

Results

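Vwf-positive endothelial cells were examined in a single-cell RNA-seq table of mouse lung at postnatal day 3. Vwf encodes von Willebrand factor, the large adhesive glycoprotein that tethers platelets to an injured vessel wall. A cell was taken when its mitochondrial genes made up at most 10% of its total, when at least 3 of the 6 endothelial genes Pecam1, Cdh5, Cldn5, Tie1, Egfl7 and Ramp2 had a value above 0, when Vwf was 2 or more and when Ptprc, the pan-leukocyte gene that encodes CD45, was 0. This gave 113 of the 11306 cells in the table. They were 13.2% (exact Clopper-Pearson 95% interval 11.04% to 15.7%) of the 853 endothelial cells with Ptprc at 0, and 1.06% (0.874% to 1.27%) of the 10660 cells that passed the mitochondrial limit. The cells were thus chosen by their values of Vwf, the 6 endothelial genes and Ptprc, and these values describe the choice and support nothing.

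Endothelial cells line every blood and lymph vessel. In the lung, arteries, veins and a wide capillary bed each carry their own kind of endothelium: general capillary cells act as the stem-like cells of the bed, and aerocytes form the thin sheet across which gas is exchanged. Von Willebrand factor is stored in Weibel-Palade bodies, rod-shaped granules that also hold P-selectin. In lung it is known as a protein of larger vessels that is scarce in alveolar capillaries. Arterial identity is associated with Notch signalling and venous identity with the nuclear receptor that Nr2f2 encodes.

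The study is titled as one on autonomic nerves and myofibroblasts in the forming alveoli. It holds 2 samples, both labelled as control lungs at postnatal day 3. The single-cell library (10x Chromium 3′ v3) came from sorted cells of the lung periphery of wild-type mice; neither the sort gate nor the number of mice is given, so pooling is unknown. The other sample is bulk RNA of sorted PDGFRA+ cells from Pdgfra-H2BGFP mice, in which the Pdgfra locus drives a nuclear fluorescent protein, and it serves here only for background levels. With 1 library there were no replicates and no difference was tested. Intervals on shares of cells cover counting error only, and PCR copies, free RNA and differences between animals are not in them.

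The table held 17758 genes and whole-number values that behave as UMI counts corrected for depth, with a cell median of 5537. Detected genes per cell ranged from 709 to 3760 (median 2012), and 646 cells were over the mitochondrial limit. In the bulk library of 171910584 reads, Vwf stood at 6.54 CPM (exact Poisson interval 6.17 to 6.94). Per length, in the authors' TPM, Vwf stood at 1.45, Pecam1 at 3.87 and Pdgfra at 54.0. Of the vessel markers used below, Nr2f2 stood at 54.3 TPM, as high as Pdgfra, Prss23 at 13.8, Gja5 at 7.77, Dkk2 at 2.12 and Car8 at 0.30.

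Vwf itself varied widely among the chosen cells. The lowest value was 2, the median was 9, the middle 50% of cells lay between 6 and 16, and the highest was 48. Values of 10 or more occurred in 51 cells (45.1%) and values of 20 or more in 19. At the edge of the rule, 8 cells were just inside with a value of 2, and 21 endothelial cells were just outside with a value of 1. The other 719 endothelial cells with Ptprc at 0 (84.3%) had Vwf at 0, and these served as the comparison. The plot of Vwf values has its highest bar at 1 (21 cells), outside the rule, and its highest red bar at 7 (11 cells).

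**Figure D1:**
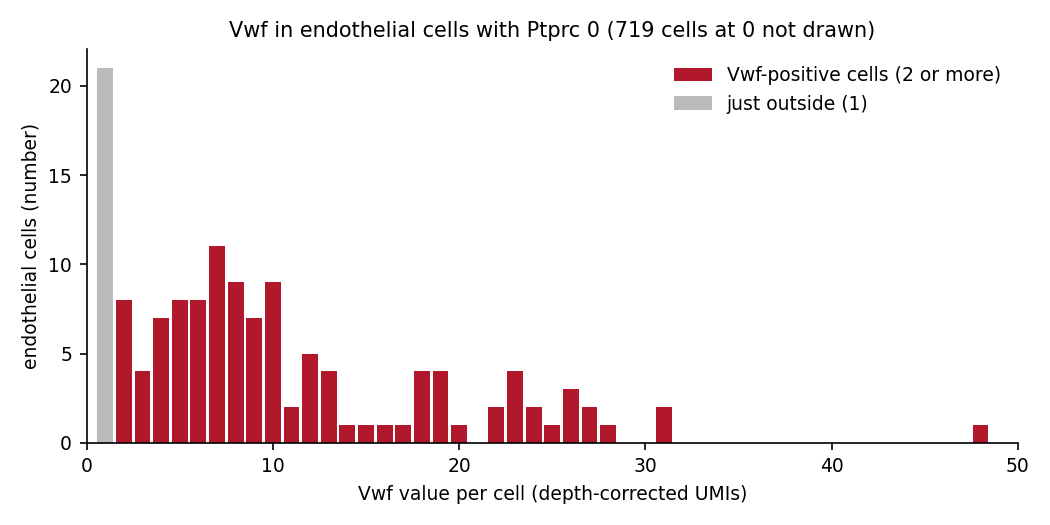
Number of endothelial cells with Ptprc at 0 (vertical axis) at each Vwf value above 0 (horizontal axis, depth-corrected UMIs per cell). Red bars are the 113 Vwf-positive cells, with a median of 9 and a maximum of 48, and the grey bar is the 21 cells with a value of 1.

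All 6 endothelial genes were above 0 in 86 of the 113 cells, 5 in 25 cells and 4 in 2 cells, so no cell rested on the minimum of 3. The cells had a median of 2475 detected genes (1343 to 3498), against 2214 in the Vwf 0 cells and 1796.5 in 6408 leukocytes (Ptprc above 0 and at most 1 endothelial gene). Another 51 cells met the rule except that Ptprc was above 0, and 34 cells had Vwf at 2 or more with fewer than 3 endothelial genes. In these 34 cells the median Vwf was 2, at the threshold. A doublet score predicted 2 of the 113 cells (1.77%) and 26 of the Vwf 0 cells (3.62%) to be pairs, and none were removed. Of simulated pairs, 56.1% passed the threshold of this score.

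The vessel type of the cells was read from pairs of markers that the rule names: Gja5 and Dkk2 for arteries, Nr2f2 and Car8 for veins, Prox1 and Mmrn1 for lymphatics. Gja5 encodes the gap junction protein connexin 40, Dkk2 a secreted modulator of Wnt signalling, Nr2f2 the transcription factor COUP-TFII, and Car8 a carbonic anhydrase-related protein. Prox1 encodes the master regulator of lymphatic fate and Mmrn1 multimerin 1, a large extracellular glycoprotein. Arterial-marked and venous-marked cells are set apart below by Gja5, Dkk2, Nr2f2 and Car8 together. The promoters of Gja5, from the arterial pair, and Nr2f2, from the venous pair, are shown here. They are the 250 bases before the RefSeq start site on GRCm38.p6, with capitals at every GGAA core of ETS factors, the family that includes the endothelial factors Erg and Fli1, or its reverse complement TTCC. Gja5 lies at chr3:97032152-97032401 on the plus strand and Nr2f2 at chr7:70366747-70366996 on the minus strand.
Gja5: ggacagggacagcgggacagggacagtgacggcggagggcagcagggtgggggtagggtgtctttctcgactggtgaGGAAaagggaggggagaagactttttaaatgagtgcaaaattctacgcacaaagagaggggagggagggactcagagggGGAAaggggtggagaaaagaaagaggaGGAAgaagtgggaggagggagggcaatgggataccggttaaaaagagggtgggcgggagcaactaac
Nr2f2: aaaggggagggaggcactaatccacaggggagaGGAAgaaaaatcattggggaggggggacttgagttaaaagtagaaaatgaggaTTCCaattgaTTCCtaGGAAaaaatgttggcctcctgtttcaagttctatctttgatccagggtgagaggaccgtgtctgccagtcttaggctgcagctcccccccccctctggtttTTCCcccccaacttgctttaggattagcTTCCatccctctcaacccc

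The Gja5 stretch held 3 such 4-base cores, a number that 54.7% of 32851 RefSeq promoters of this length reached. The Nr2f2 stretch held 6, which 8.69% reached. At least 1 core was present in 93.4% of promoters, so the matches describe the letters and not binding.

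Blood vessel markers were frequent in the Vwf-positive cells. Gja5 was above 0 in 37 of 113 cells, 32.7% (exact interval 24.2% to 42.2%), against 2.92% of the Vwf 0 cells and 0.437% of leukocytes. Dkk2 was above 0 in 27 cells, 23.9% (16.4% to 32.8%), against 1 of 719 Vwf 0 cells (0.139%) and 0.0624% of leukocytes. For both genes the leukocyte shares serve as a background level. The source of these values in leukocytes, free RNA or other, was not tested.

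The venous pair was the more frequent one. Car8 was above 0 in 70 cells, 61.9% (52.3% to 70.9%), against 2.36% of Vwf 0 cells and 1.30% of leukocytes. Nr2f2 was above 0 in 56 cells, 49.6% (40.0% to 59.1%), and it was also present in 17.2% of Vwf 0 cells and 5.23% of leukocytes. Nr2f2 was thus the less specific of the pair, with a share in Vwf 0 cells above that in leukocytes and a high level in the bulk PDGFRA+ cells.

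At least 1 gene of the arterial pair was found in 37.2% (28.3% to 46.8%) of Vwf-positive and 3.06% of Vwf 0 cells. The venous pair was found in 69.0% (59.6% to 77.4%) and 18.8%. In all, 107 of the 113 cells (94.7%) had an arterial or a venous marker, against 21.4% of Vwf 0 cells. When a gene was counted only at a value of 2 or more, the venous share was 54.9% against 7.93%.

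Lymphatic markers were rare. Prox1 was above 0 in 3 cells, 2.65% (0.551% to 7.56%), against 4.31% of Vwf 0 cells and 1.37% of leukocytes, and each of the 3 cells had a value of 1. Mmrn1 was found in 0 of 113 cells, which allows up to 2.65% of cells with a value above 0 (the exact interval reaches 3.21%), against 4.45% of Vwf 0 cells. Of 11 genes of the lymphatic list with enough values 8 were lower than in Vwf 0 cells and 2 higher, by the size measure given below, under which 10.0% of all genes were lower and 7.03% higher (median log2 ratio of the list -2.32). Ccl21a, a lymphatic chemokine gene, was listed at 0 in the Vwf-positive cells and stood at 683 CPM in the Vwf 0 cells, where it was above 0 in 4.59% of cells. CPM here is the summed values of a group scaled to a total of 1000000. The higher ones, named after their values were seen, were Lyve1, a hyaluronan receptor gene, at 749 against 336 CPM, and Fgl2 at 74.6 against 21.6 CPM. The list summed to 859 CPM against 1303 CPM, and without Ccl21a the Vwf-positive sum was the higher one.

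**Figure D2:**
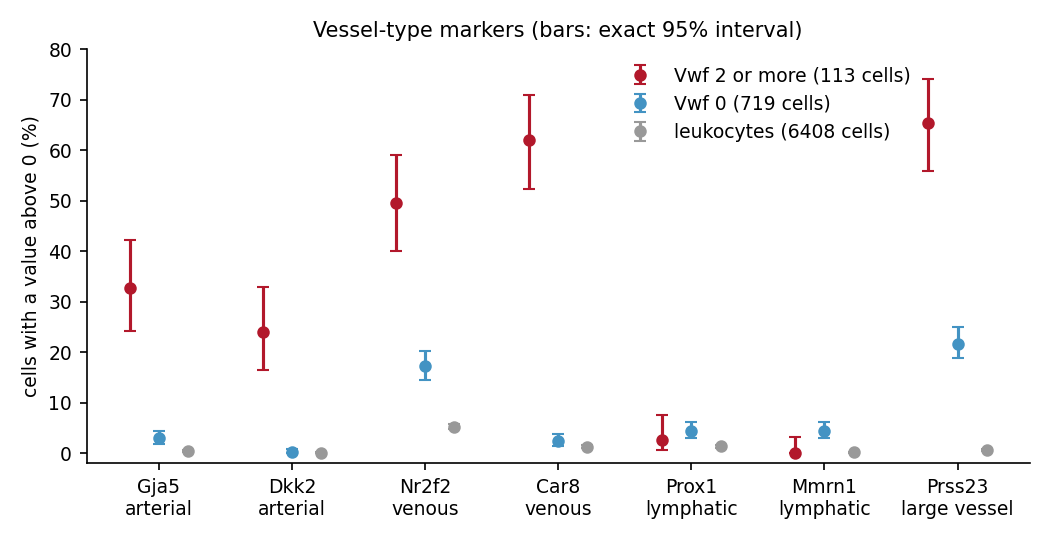
Percent of cells with a value above 0 (vertical axis) for 7 vessel markers in Vwf-positive cells, Vwf 0 endothelial cells and leukocytes; points are shares and bars are exact 95% intervals. The red points of Gja5, Dkk2, Nr2f2, Car8 and Prss23 lie between 23.9% and 65.5%, above the other groups, while those of Prox1 (2.65%) and Mmrn1 (0) do not.

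Prss23, which encodes a secreted serine protease, is the marker of the label that neither the rule nor the vessel pairs used. It was above 0 in 74 cells, 65.5% (56.0% to 74.2%), against 21.7% of Vwf 0 cells and 0.640% of leukocytes. Among Vwf 0 cells it was found in 27.8% of general capillary-marked cells and 5.47% of aerocyte-marked cells. In the 31 Vwf 0 cells with Prox1 above 0, Prss23 stood at 381 CPM, against 366 CPM in the Vwf-positive cells. Nr2f2 stood at 375 against 206 CPM, so neither level set the Vwf-positive cells apart from cells with Prox1. Nr2f2 and Prss23 were also not shared by all of the Vwf-positive cells. The name large vessel rests on the arterial and venous genes together, since vessel size was not measured.

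The cells fell mostly into an arterial-marked and a venous-marked set. Arterial-marked cells (Gja5 or Dkk2 above 0, Nr2f2 and Car8 at 0) numbered 29, 25.7% (17.9% to 34.7%). Venous-marked cells (Nr2f2 or Car8 above 0, Gja5 and Dkk2 at 0) numbered 62, 54.9% (45.2% to 64.2%). Both pairs were present in 13 cells (11.5%) and neither in 6 (5.31%), and the 3 cells with Prox1 were left out of this division. Median detected genes were 2232 in arterial-marked, 2524 in venous-marked, 3021 in double-marked and 1803 in unmarked cells; the part of this depth order in the division was not tested.

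Vwf, by which all of these cells were chosen, is given for both sets as a description. Arterial-marked cells ranged from 2 to 27 with a median of 8, and venous-marked cells from 2 to 48 with a median of 9. The summed levels were 1971 and 1961 CPM. The lower end of both ranges is set by the rule.

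The other genes of the arterial and venous lists were then counted cell by cell, without Gja5, Dkk2, Nr2f2 and Car8. Arterial-marked cells had a median of 16 of the 20 remaining arterial genes (9 to 19) and 4 of the 19 remaining venous genes (0 to 10). Venous-marked cells had 7 arterial genes (2 to 16) and 9 venous genes (3 to 14). Vwf 0 cells had 4 and 3. The double-marked cells resembled the arterial-marked ones in this count, with medians of 17 arterial and 6 venous genes. In them the venous pair was met by Car8 in 11 of 13 cells and by Nr2f2 in 3, and Gja5 was above 0 in all 13.

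**Figure D3:**
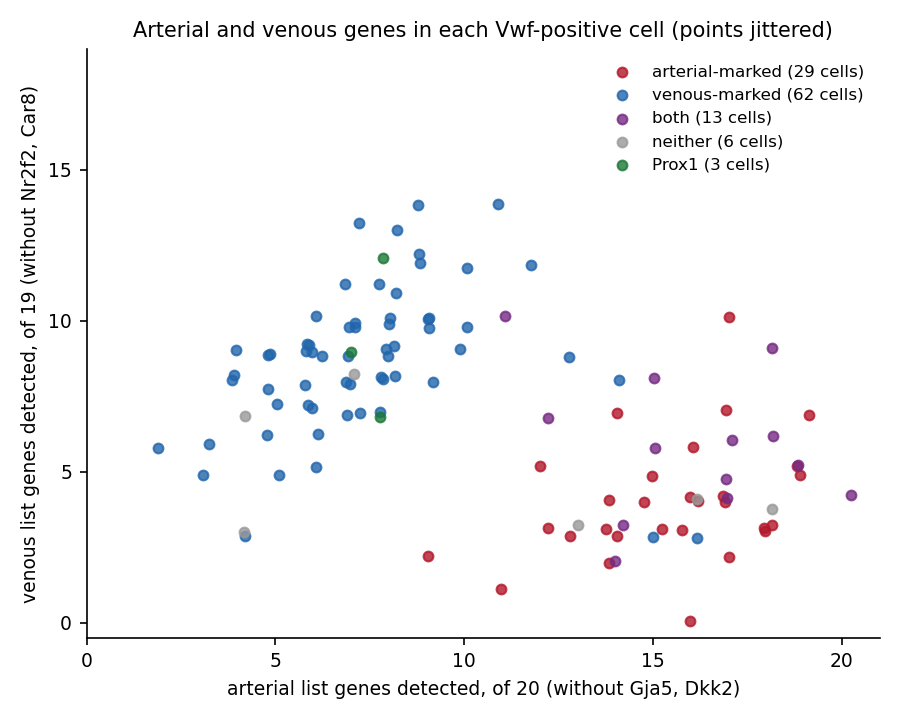
Each point is 1 Vwf-positive cell, placed by how many of 20 arterial list genes (horizontal axis) and 19 venous list genes (vertical axis) had a value above 0, with a small random offset and colour for the marker set. Arterial-marked cells have a median of 16 arterial and 4 venous genes, venous-marked cells 7 and 9, and double-marked cells 17 and 6.

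Levels in Vwf-positive cells were compared with those in Vwf 0 cells as a log2 ratio of CPM + 1, over 10662 genes with at least 20 summed values. A gene was counted as higher or lower by size alone, at a ratio of 1 or more or -1 or less. Higher were 750 genes (7.03%) and lower 1067 (10.0%), 17.0% in all, and the median over all genes was -0.02. Single-cell levels are depth-corrected and carry no interval.

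Both blood vessel lists stood higher. Of the 22 arterial genes 18 were higher and 0 lower, with a median log2 ratio of 2.55. Of 19 venous genes with enough values 15 were higher and 1 lower, with a median of 2.17. These lists were chosen with results of these data known, and the counts describe them.

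Among arterial genes, Bmx, which encodes a non-receptor tyrosine kinase of arterial endothelium, stood at 154 CPM against 1.51 in Vwf 0 cells (log2 ratio 5.95). It was above 0 in 41 cells (36.3%) and in 0.834% of Vwf 0 cells. Jag1, a Notch ligand gene, stood at 145 against 13.3 CPM (3.35). Cxcl12, whose product is a chemokine that guides vessel and nerve growth, stood at 2011 against 151 CPM (3.73).

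Among venous genes, Adgrg6, an adhesion G protein-coupled receptor gene, was found in 97 of the 113 cells (85.8%) and in 5.70% of Vwf 0 cells. Its level was 503 against 14.6 CPM (5.01). Cpe, which encodes a carboxypeptidase that trims peptide hormones, stood at 296 against 4.78 CPM (5.68). Vegfc, a growth factor gene best known in lymphatic growth, stood at 201 against 44.0 CPM (2.17).

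**Figure D4:**
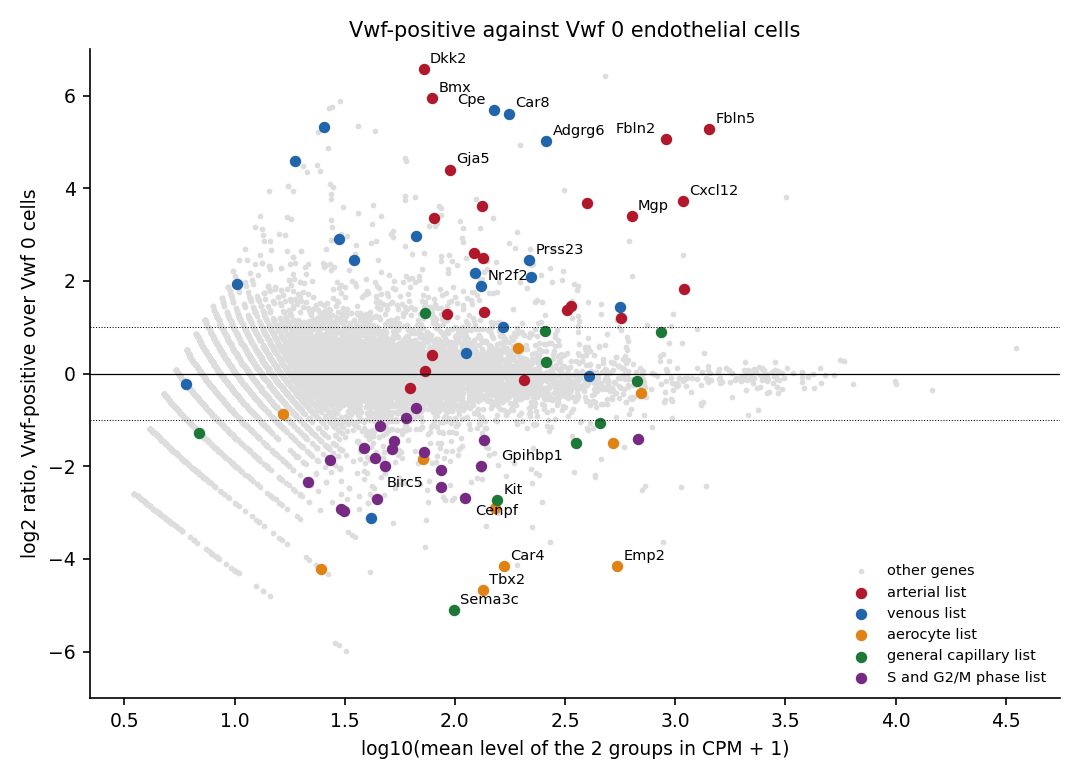
Log2 ratio of level in Vwf-positive over Vwf 0 endothelial cells (vertical axis) against the mean level of both groups as log10(CPM + 1) (horizontal axis); each point is 1 of the genes with at least 20 summed values, coloured by list, and dotted lines mark ratios of 1 and -1. Arterial and venous genes lie mostly above the upper line (median 2.55 and 2.17), and aerocyte and cell cycle genes mostly below the lower one (median -2.37 and -1.84).

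The elastic fibre and vessel wall list also had many higher genes, 13 of 23, with 4 lower and a median of 1.63. Of the 13, Fbln5, Fbln2, Ltbp4 and Mgp are also in the arterial list counted above. Elastic fibres let arteries and airspaces recoil, and this matrix is laid down around birth. Eln, the elastin gene, was above 0 in 107 cells (94.7%), with a median value of 17 and a highest value of 270. It stood at 5909 CPM against 423 in Vwf 0 cells (3.80), where 51.2% of cells had a value.

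Fbln5 encodes fibulin 5, a scaffold on which elastin assembles. It was found in 111 cells (98.2%), median value 15, and in 14.5% of Vwf 0 cells, at 2786 against 70.9 CPM (5.28). Fbln2, for the related fibulin 2, was found in 109 cells (96.5%), median value 8, and in 18.6% of Vwf 0 cells, at 1761 against 51.5 CPM (5.07). Each of the 2 genes was thus above 0 in nearly every Vwf-positive cell.

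Ltbp4, a gene for a latent TGF-beta binding protein of elastic fibres, stood at 736 against 56.8 CPM (3.67). Mgp, for matrix Gla protein, an inhibitor of vessel calcification, stood at 1158 against 109 CPM (3.40). Mfap4 and 3 other members were lower; Mfap4 stood at 145 against 312 CPM (-1.10). Of the fibroblast and mural genes, whose cells also make this matrix, 0 of 11 were higher and 5 lower, their summed level was 646 against 1189 CPM, and Cspg4 and Lum were at 0. In arterial-marked cells alone this list summed to 212 CPM and in venous-marked cells to 178 CPM. Its part in the matrix levels was not tested.

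The basement membrane list moved the other way for collagen IV, the sheet-forming collagen under endothelium. Col4a1 stood at 328 CPM against 1793 in Vwf 0 cells (-2.45) and Col4a2 at 227 against 1234 (-2.44). Col4a1 was above 0 in 58.4% of Vwf-positive and 97.8% of Vwf 0 cells. Of the 15 genes of the list 5 were lower and 2 higher, and one of the higher ones was Col18a1, which encodes the parent of endostatin, at 257 against 47.5 CPM (2.41).

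Weibel-Palade body genes were mixed. Besides Vwf, 6 of 18 were higher and 3 lower, with a median of 0.69. Of the 6, Edn1 is also in the arterial list and Selp in the venous list. Rab27a, which encodes a small GTPase that holds the granules at the cell edge, stood at 44.2 against 7.79 CPM (2.36). Edn1, the endothelin 1 gene, whose product is a vasoconstrictor also found in these granules, stood at 209 against 33.4 CPM (2.61). Igfbp7, another cargo gene, was lower at 210 against 1202 CPM (-2.51), and Angpt2 stood at 4.57 against 14.8 CPM (-1.51). Selp and Myrip were chosen after their values were seen: Selp, the P-selectin gene, was found in 12.4% of Vwf-positive and 0.28% of Vwf 0 cells, and Myrip, whose product links Rab27a to actin motors, in 23.0% of Vwf-positive cells while listed at 0 in Vwf 0 cells.

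In the haemostasis list 2 of 12 genes were higher and 2 lower (median -0.10). Procr encodes the endothelial protein C receptor, an anticoagulant of large vessels, and was above 0 in 78 cells (69.0%) against 7.09% of Vwf 0 cells, at 232 against 16.1 CPM (3.77). Entpd1, whose product breaks down ADP and so limits platelet clumping, stood at 190 against 25.9 CPM (2.83). Cd36, a fatty acid and thrombospondin receptor gene of capillaries, was lower, at 85.3 against 357 CPM (-2.05). Platelet genes were not higher beside it: 7 of the 10 platelet genes were measured, their summed level was 18.3 CPM against 27.6 in Vwf 0 cells, and Gp1bb was at 0.

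Genes of adhesion and leukocyte recruitment were higher in 7 of 18 cases and lower in 2 (median 0.48). Of the 7, Cxcl12, Selp, Vcam1 and Lyve1 are also in the arterial, venous or lymphatic lists counted above. Icam1 stood at 487 against 120 CPM (2.01) and Vcam1 at 57.9 against 9.80 CPM (2.45), both genes for leukocyte adhesion receptors. Jam2, a junction gene, was above 0 in 73.5% of Vwf-positive and 20.03% of Vwf 0 cells (2.42). Cd34 went the other way, at 154 against 705 CPM (-2.19).

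For flow response and vascular tone 8 of 22 genes were higher and 3 lower (median 0.65). Of the 8, Edn1, Gja4 and Gja5 are also in the arterial list and Ptgs1 in the venous list. Gja4, which encodes connexin 37, stood at 466 against 180 CPM (1.37), and Ptgs1, for cyclooxygenase 1, at 117 against 14.1 CPM (2.97). Klf2 and Nos3 were chosen after their values were seen: Klf2, a shear stress factor, stood at 1287 against 632 CPM (1.02), and Nos3, the endothelial nitric oxide synthase gene, at 80.7 against 17.8 CPM (2.12).

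Signalling lists held higher and lower genes, with medians near 0. Among the higher ones, Jag1 and Hey1 are also in the arterial list and Vegfc in the venous list. Of 16 Notch genes 4 were higher and 2 lower (median 0.21), of 20 BMP and TGF-beta genes 4 were higher and 2 lower (-0.10), and of 17 VEGF, angiopoietin and apelin genes 2 were higher and 6 lower (-0.29). Ptprb, the gene of the phosphatase VE-PTP that restrains the Tie2 receptor, was found in all 113 cells (median value 10) and in 63.1% of Vwf 0 cells, at 1860 against 313 CPM (2.57). Flt4, the VEGFC receptor gene, was lower at 15.2 against 89.5 CPM (-2.48).

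Transcription factor genes were higher in 8 of 27 cases and lower in 7. Of the 8, Hey1 is also in the arterial list and Nr2f2 in the venous list. Gata6 stood at 206 against 42.7 CPM (2.24) and Foxo1 at 251 against 62.8 CPM (1.98). Meox1 stood at 4.57 against 61.8 CPM (-3.50). Tbx2, a factor of aerocytes, stood at 9.14 against 257 CPM (-4.67).

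Of the nerve-related list, which the study's title made of interest, 6 of 19 genes were higher and 4 lower (median -0.14). Of the 6, Sema3g and Efnb2 are also in the arterial list and Ephb4 in the venous list. Plxnd1, which encodes a semaphorin receptor, was above 0 in 103 cells (91.2%) and in 53.8% of Vwf 0 cells, at 507 against 171 CPM (1.56). The ephrin gene Efnb2 stood at 491 against 177 CPM (1.47) and the semaphorin gene Sema3g at 192 against 75.9 CPM (1.33). Sema3c, by contrast, was above 0 in 3 cells and stood at 4.57 against 191 CPM (-5.11). Adrb1, the beta-1 adrenergic receptor gene, was in 14.2% of Vwf-positive and 38.8% of Vwf 0 cells, at 27.4 against 107 CPM (-1.93).

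Aerocyte genes were mostly lower, and general capillary genes were divided. Of 10 aerocyte genes 7 were lower and 0 higher (median -2.37), and of 10 general capillary genes 5 were lower and 1 higher (-0.61). Car4, a carbonic anhydrase gene of aerocytes, stood at 16.8 against 314 CPM (-4.15), and Emp2 at 56.4 against 1028 CPM (-4.17). Kit, a growth factor receptor gene of general capillary cells, stood at 39.6 against 270 CPM (-2.74). Lpl, the lipoprotein lipase gene, was the higher one, at 104 against 41.2 CPM (1.31), but it was found in 15 cells only, and the ratio was -0.76 when cells with markers of other lineages were left out.

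Because the Vwf 0 cells are a mixture, they were divided into 478 general capillary-marked cells (66.5%), 201 aerocyte-marked cells (28.0%) and 40 others. Against general capillary-marked cells 764 of 9761 genes (7.83%) were higher and 827 (8.47%) lower, and 16 of 22 arterial and 13 of 17 venous genes were higher. Against aerocyte-marked cells 693 of 8676 genes (7.99%) were higher and 832 (9.59%) lower, and 17 of 22 arterial and 15 of 17 venous genes were higher. The elastic fibre list had 13 of 20 genes higher and 2 lower against general capillary-marked cells (median 2.52). Against aerocyte-marked cells this list was divided, with 10 of 22 genes higher and 7 lower (median 0.80). Beside it, fibroblast and mural genes were higher in 4 of 10 cases and lower in 3 against general capillary-marked cells, with a sum of 646 against 367 CPM, and higher in 0 of 11 and lower in 9 against aerocyte-marked cells (2273 CPM). The 4 higher ones, named after their values were seen, were Col1a1, Col1a2, Col3a1 and Dcn, and 1 Vwf-positive cell held 77.5% of the summed Col1a1 values and 96.9% of those of Dcn. Col4a1 was lower against both, with ratios of -2.48 and -2.53. General capillary genes were lower in 5 of 10 cases and higher in 1 against general capillary-marked cells. Those cells were chosen by Gpihbp1, Aplnr, Kit and Plvap of this list, and Gpihbp1 and Kit are among the 5. That count is thus partly fixed by the choice of cells. Against aerocyte-marked cells the list was higher in 5 of 9 cases and lower in 1. Among the higher ones was Plvap, named after its values were seen, at 1117 against 140 CPM. Aerocyte genes were lower in 2 of 8 cases and higher in 1 against general capillary-marked cells (median -0.18). There Car4 stood at 0.93 and Emp2 at -0.03, so neither was lower against this part of the Vwf 0 cells. Against aerocyte-marked cells 10 of 10 were lower. Both counts are partly fixed, because Car4, Ednrb, Apln, Fibin and Tbx2 of this list divided those cells. Igfbp7 stood at -0.86 against general capillary-marked and -3.96 against aerocyte-marked cells.

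Cell cycle genes were lower almost throughout: of 20 S and G2/M phase genes 18 were lower and 0 higher (median -1.84). Cenpf, which encodes a centromere protein of dividing cells, was above 0 in 4 of 113 cells (3.54%) and in 23.1% of Vwf 0 cells, at 28.9 against 192 CPM (-2.68). Birc5, the survivin gene, was in 6 cells (5.31%) and 25.9% of Vwf 0 cells. Against aerocyte-marked cells 8 of 20 were lower, with a median of -0.86. Within the Vwf-positive cells the list summed to 374 CPM in arterial-marked and 1265 CPM in venous-marked cells. Of 7 genes with enough values there, 5 were lower in arterial-marked cells and 0 higher, beside 11.4% of all genes lower. Few cells carried these values, as with Birc5, above 0 in 1 arterial-marked and 4 venous-marked cells.

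Stress genes that dissociation induces also differed, with 7 of 15 higher and 0 lower (median 0.96). Fos was above 0 in 54.9% of Vwf-positive and 32.1% of Vwf 0 cells, and stood at 554 against 158 CPM (1.80). Atf3 stood at 219 against 64.9 CPM (1.74). This list moved with every comparison of Vwf-positive and Vwf 0 cells, and its part in them was not tested.

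The genes with the highest ratios of all included several outside these lists. Fabp4, a fatty acid binding protein gene, was above 0 in 53 cells (46.9%), with a highest value of 63, and in 2.78% of Vwf 0 cells, at 946 against 10.1 CPM (6.42). Thsd7a, for a thrombospondin-repeat protein of endothelium, stood at 381 against 11.6 CPM (4.93). Plac8 was in 65.5% of Vwf-positive and 12.1% of Vwf 0 cells, at 588 against 36.7 CPM (3.97). In leukocytes Plac8 stood at 473 CPM, Fabp4 at 21.5 CPM and Thsd7a at 0.258 CPM. At the other end, Gnao1 and Atp8a1 were listed at 0 in the Vwf-positive cells and stood at 62.1 and 57.3 CPM in the Vwf 0 cells.

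Arterial-marked and venous-marked cells were then compared over 4408 genes with at least 20 summed values. Higher in arterial-marked cells were 331 genes (7.51%) and lower 503 (11.4%), 18.9% in all, with a median of -0.07. Of the 20 arterial genes not used for the division 18 were higher and 0 lower (median 2.44). Of 13 venous genes with enough values 10 were lower and 0 higher (median -2.33).

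Cxcl12 was found in every arterial-marked cell. Arterial-marked cells had values from 1 to 69 with a median of 11, and venous-marked cells from 0 to 41 with a median of 0. The level was 4147 against 208 CPM (4.31). Most venous-marked cells lacked the gene, and the ranges overlapped through those that had it.

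Gja4 had a median of 5 in arterial-marked (0 to 17) and 0 in venous-marked cells (0 to 9), at 1123 against 95.9 CPM (3.54). Sema3g had medians of 2 and 0, at 493 against 16.4 CPM (4.82), and Efnb2 medians of 4 and 0, at 1010 against 112 CPM (3.16). Efnb2 encodes the ephrin whose receptor, EphB4, marks veins; Ephb4 was chosen after its values were seen and stood at 106 against 285 CPM (-1.42).

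Of 11 Notch genes 6 were higher in arterial-marked cells and 1 lower, with a median of 1.75. Of the 6, Dll4, Jag1, Jag2 and Hey1 are also in the arterial list counted above, so this is largely the same result, and Notch4 and Nrarp are the other two. Hey1, a Notch target gene, stood at 299 against 10.96 CPM (4.65), Nrarp, a feedback inhibitor gene, at 237 against 46.6 CPM (2.32), and Jag1 at 274 against 76.7 CPM (1.83). Dll1 was the lower one, at 24.9 against 60.2 CPM (-1.24).

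In venous-marked cells Fabp4 had a median of 5 and a highest value of 63, and in arterial-marked cells it did not pass 1. The levels were 1657 and 6.24 CPM (log2 arterial over venous -7.84). Cygb, the cytoglobin gene, was listed at 0 in arterial-marked and at 164 CPM in venous-marked cells, and Pgm5 at 0 and 246 CPM. Lbp, for a lipopolysaccharide binding protein, stood at 6.24 against 214 CPM (-4.89).

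Ackr3, which encodes a scavenger receptor for the Cxcl12 chemokine, had a median of 3 in venous-marked cells (0 to 12) and did not pass 1 in arterial-marked cells, at 31.2 against 581 CPM (-4.18). The ligand gene and the scavenger gene were therefore high in opposite sets. Icam1 stood at 87.3 against 720 CPM (-3.03), Vegfc at 31.2 against 315 CPM (-3.30) and Entpd1 at 31.2 against 279 CPM (-3.12). Prss23 was found in 34.5% of arterial-marked and 87.1% of venous-marked cells, at 106 against 553 CPM (-2.37).

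The general capillary gene Gpihbp1, which anchors lipoprotein lipase, was above 1 in no arterial-marked cell. It had a median of 1 and a maximum of 7 in venous-marked cells, at 6.24 against 252 CPM (-5.13). Against Vwf 0 cells it had been lower in the Vwf-positive cells as a whole, at 184 against 522 CPM (-1.50).

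Elastic fibre genes were higher in arterial-marked cells in 8 of 15 cases and lower in 4 (median 1.04). Of the 8, Fbln5, Ltbp4 and Mgp are also in the arterial list. For Mfap4, another of the 8, 1 cell held 90% of the summed values of arterial-marked cells. Eln had medians of 22 and 17 and highest values of 270 and 148, at 10178 against 4204 CPM (1.27). Fbln5 had medians of 21 and 12, at 4022 against 1950 CPM (1.04), and Ltbp4 medians of 7 and 2, at 1322 against 430 CPM (1.62). Fbln2 differed little, with medians of 6 and 9 and 1765 against 1695 CPM (0.06), and so did Adgrg6, at 493 against 463 CPM (0.09). Both of the last-named genes were high in each set relative to Vwf 0 cells.

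**Figure D5:**
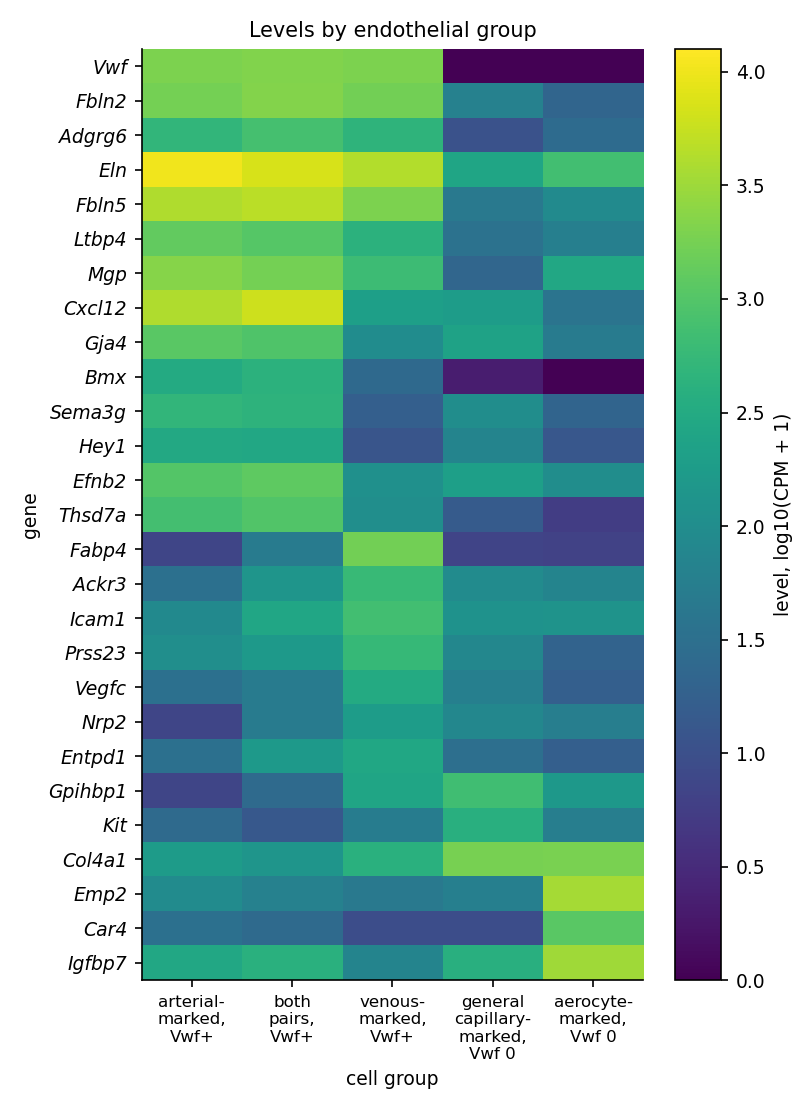
Level of 27 genes (rows) as log10(CPM + 1) (colour) in arterial-marked, double-marked and venous-marked Vwf-positive cells and in general capillary-marked and aerocyte-marked Vwf 0 cells (columns). Fbln2 and Adgrg6 are high in all 3 Vwf-positive columns, Cxcl12 is high in the arterial-marked (4147 CPM) and double-marked (6038 CPM) columns, and Fabp4 in the venous-marked column (1657 CPM).

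Double-marked cells had Cxcl12 at 6038 CPM, Bmx at 436 CPM against 318 in arterial-marked and 24.6 in venous-marked cells, and Fabp4 at 49.8 CPM. Their Ackr3 level, 137 CPM, lay between those of the other sets. By these genes the 13 cells lay nearer the arterial-marked cells, as in the count of list genes per cell. The doublet score predicted 0 of them to be pairs, and both predicted doublets among the Vwf-positive cells were venous-marked. The score passed its threshold for 56.1% of simulated pairs, so pairs can go uncalled. The part of the higher number of detected genes in double-marked cells, given above, was not tested.

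Some leukocyte genes moved with the venous-marked cells through few cells. The leukocyte list summed to 811 CPM in arterial-marked and 2769 CPM in venous-marked cells, against 36982 in leukocytes, with Ptprc at 0 by the rule. S100a8 stood at 212 against 1013 CPM (-2.25), and 1 cell had a value of 323 where the median of the venous-marked cells was 1. Camp and Ngp, both neutrophil granule genes, each reached 84 in 1 cell while their medians were 0. Without that cell the Camp ratio was 0.40, and these genes are not read as part of a venous set. Epithelial genes summed to 655 and 556 CPM, with Sftpc found in 89.4% of Vwf-positive and 90.1% of Vwf 0 cells.

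Along the Vwf value, levels of some genes stood higher at each step and those of others did not. Fbln5 stood at 70.9 CPM at Vwf 0, 264 at Vwf 1, 1455 at Vwf 2 to 3 (12 cells) and 2947 at Vwf 4 or more (101 cells). Fbln2 stood at 51.5, 160, 862 and 1870 CPM and Eln at 423, 1002, 1441 and 6449 CPM over the same steps. For Eln the smallest of these steps lay at the threshold. Fabp4 stood at 10.1, 8.01, 438 and 1007 CPM. Gja5 stood at 7.54, 72.1, 56.5 and 195 CPM, Prss23 at 66.1, 232, 155 and 391 CPM, and Atp13a3, a polyamine transporter gene, at 40.5, 369, 325 and 343 CPM, so none of the last-named 3 was higher at Vwf 2 to 3 than at Vwf 1. The steps at Vwf 1 and at 2 to 3 hold few cells. Sftpc, a gene of alveolar type II cells, stood at 33275 CPM in the cells with Vwf at 1 and at 2324 CPM at Vwf 0, and its part in those levels was not tested.

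Marker shares did not rise at every step. Nr2f2 was found in 17.2% of cells at Vwf 0, 14.3% at Vwf 1, 58.3% at Vwf 2 to 3 and 48.5% above, and Prss23 in 21.7%, 47.6%, 41.7% and 68.3%. The arterial pair was found in 4 and the venous pair in 8 of the 21 cells with Vwf at 1 (38.1% for the venous pair), values between those of Vwf 0 cells and Vwf-positive cells. Car8 was found in 9 of the 12 cells with Vwf at 2 to 3 and in 60.4% of the 101 cells above, with overlapping exact intervals (42.8% to 94.5% and 50.2% to 70.0%).

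The 51 cells left out because Ptprc was above 0 had lower shares than the chosen cells for each blood vessel marker. Gja5 was found in 29.4%, Dkk2 in 13.7%, Car8 in 43.1%, Nr2f2 in 43.1% and Prss23 in 49.0% of them. An arterial or venous marker was present in 80.4% (66.9% to 90.2%), against 94.7% (88.8% to 98.0%) of the chosen cells, with overlapping exact intervals. Predicted doublets numbered 6. Mmrn1 and Prox1 were each found in 1 of these cells.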

How the data were processed

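Single cells of wild-type lung and bulk PDGFRA+ cells were each measured in 1 library. The tools named in the submitters' processing notes are Cell Ranger 5.0 with Seurat 3.2.2 for single cells, and Trim Galore, HISAT2, featureCounts and DESeq2 on mm10 for bulk. The single cells' genome build was not given in the sources used here. Their deposited values were treated as a score, that is UMIs adjusted for depth and kept whole, by a step that is not stated: in the 1000 cells with fewest genes 27.7% of positive values were 1, against 74.3% in the 1000 with most genes. The Poisson intervals planned for raw counts were therefore not given and cells were not thinned. The bulk table holds an expected count per gene by the authors (15.9% not whole), used as CPM with exact Poisson intervals, and the authors' deposited TPM, used to set genes side by side; FPKM values were not used.

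Comparison cells passed the same mitochondrial and endothelial steps, with Vwf and Ptprc at 0. Values were summed per group and scaled to 1000000, ratios used a pseudocount of 1 CPM, and genes needed 20 summed values over both groups. Shares carry exact Clopper-Pearson 95% intervals, and a count of 0 allows 3 cells. Vwf 0 cells were aerocyte-marked with at least 2 of Car4, Ednrb, Apln, Fibin and Tbx2, and general capillary-marked with at least 2 of Gpihbp1, Aplnr, Kit and Plvap otherwise. Doublets were scored by simulated pairs (expected share 5%, 30 components, 2000 variable genes), with a neighbour setting of 30 multiplied by 3. The score marked 457 of 10660 cells (4.29%), and these were kept in the main values. Named genes are those of the rule and its marker pairs, up to 5 per list with the largest ratio and at least 50 summed values, the 15 highest and 15 lowest ratios over Vwf 0 cells (at least 100 summed values) and the 15 highest and lowest between arterial-marked and venous-marked cells (at least 50), without predicted, mitochondrial and ribosomal protein genes. The members and the 24 gene lists were chosen with earlier results of these data known, and 4 of 365 list genes were not in the table. Promoters are from RefSeq. The log2 ratio step was tested on simulated Poisson counts with known changes, which are unlike the depth-corrected values here. The cell rule, the marker shares, the divisions of cells and the doublet calls were not tested in this way. Python 3.11.15, numpy 2.4.6, scipy 1.17.1, pandas 2.3.3, scikit-learn 1.9.0 and matplotlib 3.10.9 were used.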

Additional observations from a re-analysis of the deposited data

How the results depend on the processing

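With 1 library, spread between animals could not be measured, and sharing of free RNA or depth between groups limits every ratio. No paired analysis was possible because each group has 1 sample. Cells with Vwf at 1 taken in made 15.7% of endothelial cells Vwf-positive. A mitochondrial limit of 5% gave a venous share of 78.5%. Leaving out cells with markers of other lineages kept 66 cells and gave a venous share of 15.9% in Vwf 0 cells and a lymphatic share of 0% in Vwf-positive cells. Counting a gene at 2 or more gave arterial, venous and lymphatic shares of 1.11%, 7.93% and 3.76% in Vwf 0 cells, and a venous share of 54.9% and a lymphatic share of 0% in Vwf-positive cells. Over Vwf 0 cells 384 genes were higher and 382 lower with a pseudocount of 10 CPM, 302 and 448 with at least 100 summed values, and 1700 and 1945 with no minimum. Arterial over venous, the last 2 settings gave 51 and 51, and 1998 and 3492. Ratios over Vwf 0 cells changed sign with Vwf at 1 taken in for Sftpa1 (0.70), Sftpb (1.36) and Sftpc (1.29). They did so without predicted doublets for S100a8 (-0.54), without cells with other markers for S100a8 (-0.086), Lpl (-0.76) and Myh11 (1.06), and with any Ptprc in the comparison cells for S100a8 (-0.42). Arterial over venous, Camp stood at 0.38 without doublets and 1.04 without cells with other markers. Alternatives added after seeing the data gave Cd79a 0.75, Camp 0.60 and Ngp 1.22 with any Ptprc in both groups, Prox1 2.48 against Vwf 0 cells without Prox1 and Mmrn1 (a sign that this choice of cells fixes), and Camp 0.40 without the venous-marked cell highest in S100a8. Apart from the effect of fewer genes tested or cells kept, the cause was not tested. Of the 104 named genes past the size threshold over Vwf 0 cells, 91 to 104 kept direction and size under each alternative. Of the 30 arterial over venous, 28 to 30 did. Most of these genes were named for large ratios in the same data, which favours such counts. A limit of at least 1000 detected genes and the changed minimum of summed values left every ratio as it was.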

Other observations

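Some genes in none of the lists above are given singly. They were chosen after their values were seen and stand for no group, beside the 18.9% of all genes past the size threshold between arterial-marked and venous-marked cells. Mest was above 0 in 31.0% of arterial-marked and 82.3% of venous-marked cells, at 74.8 against 709 CPM (log2 arterial over venous -3.23). Peg3 was in 17.2% and 74.2% of cells, at 62.4 against 427 CPM (-2.76), and Plagl1 in 10.3% and 59.7%, at 24.9 against 214 CPM (-3.05). Cdkn1c, which encodes an inhibitor of the cell cycle, was in 62.1% and 41.9% of cells, at 829 against 115 CPM (2.84). Grb10 stood at -0.73, Meg3 at 1.23 and Gnas at -0.07.

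Against Vwf 0 cells, where 17.0% of all genes passed the size threshold, these genes were again on both sides. H19, a long non-coding RNA gene, was above 0 in 6 of 113 Vwf-positive cells (5.31%) and in 26.8% of Vwf 0 cells, at 19.8 against 363 CPM (-4.13). Plagl1 stood at 146 against 24.4 CPM (2.54) and Cdkn1c at 369 against 71.6 CPM (2.35), while Mest stood at 472 against 725 CPM (-0.62) and Peg3 at 306 against 348 CPM (-0.18). No cause of these differences was tested.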
